A study of Mus musculus with 2 samples.

Results

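The replication-dependent histone genes supply the bulk of the histone protein that packs newly copied DNA. The members were chosen by their symbols, which begin with Hist1h, Hist2h, Hist3h or Hist4h, and 67 genes met that rule, 67 of 67 present in the count tables of both libraries. They hold 6 genes for the linker histone H1, 18 for H2A, 18 for H2B, 12 for H3 and 13 for H4. By symbol, 54 belong to the Hist1 group, 10 to Hist2, 2 to Hist3 and 1 to Hist4. Their levels are described in T cells and macrophages, each divided by a measured value. A cell with at least 3 UMIs (unique molecular identifiers, one for each captured mRNA molecule) of Mki67 plus Top2a was called cycling. Every remaining cell of the T cell and macrophage classes was called other. Neither of these proliferation genes is a member, but both mark the same cells that copy DNA, so the difference between cycling and other cells was built into the choice and is given only as a description.

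In each nucleosome, DNA winds around a core made of paired H2A, H2B, H3 and H4 proteins, and H1 binds the DNA that links one core to the next. The genes sit in dense clusters, most have no intron, and their transcription and mRNA stability peak in S phase, when DNA is copied. Most metazoan histone mRNAs end not in a poly(A) tail but in a conserved stem-loop that the protein SLBP binds, although some of these genes can also yield polyadenylated mRNA. Since the assay primes on A-rich stretches of RNA near the 3′ end, the UMIs of these genes count only the molecules that could be primed.

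The data are single-cell RNA profiles of CD45+ immune cells from tumors in C57BL/6 mice that carried MC38 tumors (a mouse colon cancer line) on both flanks. The right tumor was treated by microwave ablation (MWA, heating with an inserted electrode) when it reached about 300 mm3, and the untreated left tumor was taken on day 8. The MWA plus TIGIT group also received an antibody against the inhibitory receptor TIGIT by repeated intraperitoneal injections, 3 days apart, from day 1. The paper describes its MWA group as given an isotype control antibody besides the ablation. The comparison of these groups asks what blocking TIGIT adds to ablation in the distant tumor. How many animals entered each library is not given.

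There is 1 library per group, with no replicates, so no difference between libraries could be tested and each one stands for 1 library of its group. The MWA library holds 10217 cell barcodes with 66152465 UMIs, and the MWA plus TIGIT library holds 10190 with 78751205. The libraries share 37 barcode sequences. After filtering, 9217 and 9105 cells were kept. Cycling T cells numbered 298 in the MWA library and 319 in the MWA plus TIGIT library, other T cells 3717 and 3469, cycling macrophages 443 and 483, and other macrophages 3629 and 3807. The median depth of the cycling T cells was 8122.5 and 7669 UMIs, that of other T cells 3265 and 3454, that of cycling macrophages 12802 and 15895, and that of other macrophages 7991 and 9990. Cycling cells were thus deeper than other cells in both libraries. Levels are in CPM, the customary scale that sets the UMIs of each class to the same total. Each UMI counts a molecule by its 3′ end, so levels of different genes were compared without scaling to length. Intervals are exact 95% intervals that cover counting error only.

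The cell classes were checked against their markers. In the T cells, 7 of 7 T cell markers were detected, with a summed level of 5260.0 CPM in the MWA library and 5733 in the MWA plus TIGIT library. The same cells held 11 of 11 macrophage markers at a sum of 811 and 825 CPM, of which Apoe was the most abundant at 373 and 396 CPM. In the macrophages, the macrophage markers summed to 31665 and 37046 CPM, led by Apoe, and the T cell markers to 34.4 and 19.8. No marker of either list was at 0 in either class. The part of RNA from the other class in the histone levels was not tested.

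In cycling T cells, the 67 members together reached 13387 CPM (13245 to 13529.6) in the MWA library, from 34215 UMIs, and 10955 CPM (10832 to 11079) in the MWA plus TIGIT library, from 30429 UMIs. Histone mRNA thus made up 1.34% and 1.10% of the mRNA molecules counted in these cells. Other T cells held 869 and 675 CPM, and the log2 ratio of cycling over other T cells was 3.94 in the MWA library and 4.02 in the MWA plus TIGIT library. Both libraries showed the high level in the cycling cells of the class as a whole. It was not found in each cluster of T cells: in the MWA plus TIGIT library, the 15 cycling cells of the cluster led by Gzmk, Ccl5 and Cd8b1, singled out after its values were seen, held 726 CPM and its other cells 751, while in the MWA library its 17 cycling cells held 2679 CPM and its other cells 869. In the MWA plus TIGIT library, the 3 cycling cells of the cluster led by Klra6, Tcrg-C4 and Trdc held 323 CPM and its other cells 408. Most histone UMIs of cycling T cells came from the cluster led by Depdc1b and Esco2, with 22983 of 34215 (MWA) and 23266 of 30429 (MWA plus TIGIT).

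Cycling macrophages held 7161 CPM in the MWA library and 4995 CPM in the MWA plus TIGIT library. Other macrophages held 508 and 422 CPM, which gives log2 ratios of 3.82 and 3.57. These depended on the cells kept: with cells over 5000 UMIs left out, which leaves 17 and 18 cycling macrophages, the ratios were 2.84 and 2.49. Cycling macrophages therefore stood below cycling T cells in both libraries, by 0.90 on the log2 scale (interval of the log2 ratio −0.92 to −0.88) in the MWA library and by 1.13 (−1.16 to −1.11) in the MWA plus TIGIT library. With cells over 5000 UMIs left out, the gap was wider. Cycling T cells then held 16910 CPM (MWA) and 12403 CPM (MWA plus TIGIT), and cycling macrophages 4409 and 3100 CPM. The macrophages were also the deeper cells, and the part of depth in that difference was not tested. The spread among single cells was wide. The median cycling T cell held 106 histone UMIs in the MWA library and 76 in the MWA plus TIGIT library, while the 10th percentile lay at 6 and 3.8. The median cycling macrophage held 44 and 26. Most histone UMIs of cycling macrophages came from the cluster led by Pbk, Anln and Plk1, with 38659 of 41102 (MWA) and 35573 of 38109 (MWA plus TIGIT). In the cluster led by Gas6, Ccl8 and Vcam1, cycling cells held 1412 and 888 CPM and other cells 463 and 405.

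**Figure D1:**
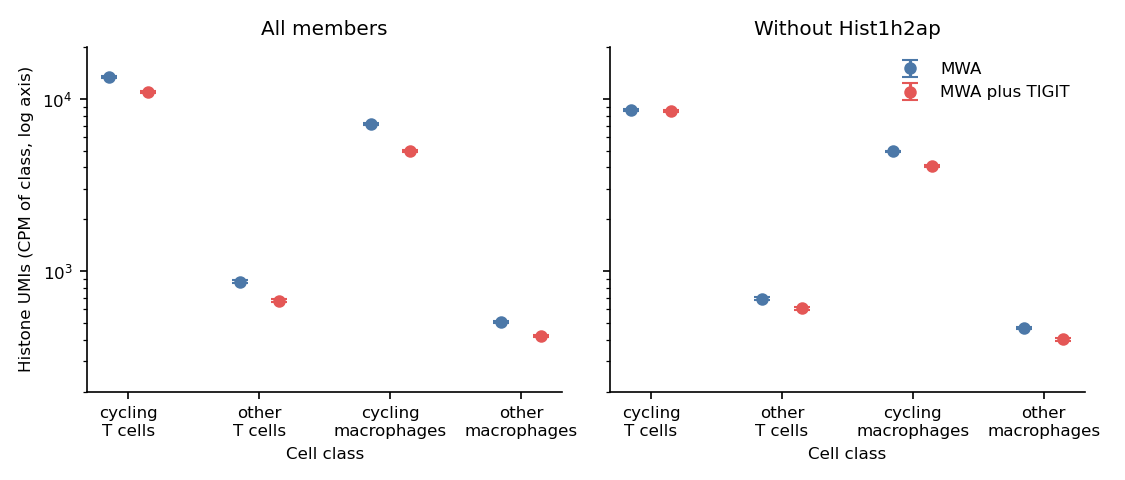
Points show the summed level of the histone genes (CPM of the UMIs of the class, log axis) in 4 cell classes of the MWA library (blue) and the MWA plus TIGIT library (red), over all 67 members at left and without Hist1h2ap at right, with exact 95% Poisson intervals. Each cycling class sits above both other classes, and the gap between libraries in cycling T cells shrinks once Hist1h2ap is left out.

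The histone level was highest in the cells with most UMIs of the markers that divided them. Just outside the limit, T cells with 2 UMIs of Mki67 plus Top2a held 2686 histone CPM in the MWA library (114 cells) and 1112 in the MWA plus TIGIT library (107 cells). Just inside it, T cells with 3 such UMIs held 3920.2 CPM (42 cells) and 1168 CPM (36 cells). T cells on either side of the limit thus differed by far less than the classes did, and in the MWA plus TIGIT library they were close. T cells with more than 10 such UMIs held 16969 and 14795 CPM. For macrophages, the values were 738 and 673 CPM with 2 UMIs, 2010.2 and 839 CPM with 3, and 10571 and 7679 CPM with more than 10.

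Gene by gene, 64 members had a UMI in the 4 classes, and Hist1h2bq, Hist1h2ba and Hist1h2aa had none. Of the 67, 24 reached 100 CPM in at least 1 class of a library and are named below with their values, and 43 did not, the highest of those at 97.8 CPM. In cycling T cells, 60 members reached 1 CPM in each library and 23 reached 100 CPM. In other macrophages, 42 members in the MWA library and 38 in the MWA plus TIGIT library reached 1 CPM, and none reached 100.

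A ratio was computed for members with at least 20 UMIs over the classes compared. Between cycling and other T cells, 57 members passed this filter in the MWA library and 53 of them were at least 2-fold higher in cycling cells, against 8.29% of all 10954 genes that passed. In the MWA plus TIGIT library, 56 of 59 were, against 8.44%. Between cycling and other macrophages, 55 of 60 members were at least 2-fold higher in the MWA library, against 8.01% of genes, and 53 of 60 in the MWA plus TIGIT library, against 8.27%. The cells were divided on this contrast, so these counts only describe it. The member medians of the log2 ratio were 3.66 and 3.91 in T cells and 3.50 and 3.81 in macrophages, beside medians over all genes that passed of −0.02, −0.00, 0.10 and 0.11. Scaling with TMM factors lowers ratios of cycling over other macrophages by 0.14 in the MWA library and 0.15 in the MWA plus TIGIT library.

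The members did not all share this pattern. Hist3h2a, an H2A gene outside the main cluster, was lower in cycling than in other cells throughout. It held 3.52 and 3.96 CPM in cycling T cells against 8.47 and 8.90 CPM in other T cells, with log2 ratios of −1.27 (−2.43 to −0.29) and −1.17 (−2.21 to −0.28). In macrophages its log2 ratios were −0.76 and −0.64, with intervals that also lay below 0. Hist3h2ba, the H2B gene beside it, was higher in cycling T cells, but only by log2 ratios of 0.69 and 0.97. Hist2h2ab in T cells of the MWA library (−0.09), Hist1h4n in T cells of the MWA plus TIGIT library (0.65), and Hist2h3c1 (−0.66 and −0.16) and Hist2h3c2 (0.21 and −0.55) in macrophages completed the lowest 3 of each comparison, each with an interval that spanned 0. At the other end, Hist1h2af reached the highest value in 3 of the 4 comparisons, up to 7.90 in macrophages of the MWA plus TIGIT library. Hist1h3b reached 6.40, the highest value in T cells of the MWA library. These genes together with Hist1h3c and Hist1h2ab supplied the 3 highest values of each comparison.

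Taken by role, the linker histones come first. H1 proteins bind linker DNA and help compact chromatin. Their 6 genes summed to 2112 CPM in cycling T cells of the MWA library and 2046 CPM in those of the MWA plus TIGIT library, and to 249 and 245 CPM in other T cells. In macrophages they summed to 1138 and 986 CPM in cycling cells and to 146 and 136 CPM in other cells. H1 was high in cycling cells of both types, by log2 ratios between 2.85 and 3.09.

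Hist1h1b, which encodes the subtype H1.5, was the most abundant H1 gene of cycling cells. It lies at chr13:21779883-21780625 on the minus strand (ENSMUSG00000058773) and held 1021 and 896 CPM in cycling T cells against 25.8 and 23.4 CPM in other T cells. In macrophages it held 467 and 409 CPM in cycling cells and 8.30 and 7.97 CPM in other cells. Its log2 ratios of cycling over other cells lay between 5.26 and 5.81, so it was high in cycling cells and low in other cells of both libraries.

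Hist1h1c, which encodes H1.2, behaved otherwise. It held 192 and 225 CPM in cycling T cells and 87.4 and 77.2 CPM in other T cells. In macrophages it held 158 and 136 CPM in cycling cells and 75.6 and 73.3 CPM in other cells. Its log2 ratios of cycling over other cells stayed between 0.89 and 1.54, the lowest of the 4 H1 genes named with at least 100 CPM. After thinning to 1000 UMIs per cell, it was found in 8.75% and 7.59% of other T cells. Of neutrophils, a class that does not divide, 5 of 44 (11.4%, 3.79 to 24.6) and 4 of 47 (8.51%, 2.37 to 20.4) held it. With so few neutrophils, this comparison cannot say whether its level in other T cells was background. Hist1h1e, for H1.4, stood between Hist1h1b and Hist1h1c in cycling T cells, at 585 and 614 CPM, and held 109 and 112 CPM in other T cells. By these counts it was the H1 gene with the highest level in other T cells. Its annotated transcript overlaps that of the H2B gene Hist1h2be on the same strand, and 100% of the 50-base stretches at its end are shared. The part of Hist1h2be in its UMIs was not tested. Hist1h1d, for H1.3, held 239 and 244 CPM in cycling T cells and 23.2 and 28.9 CPM in other T cells. The remaining H1 genes were low: Hist1h1a, for H1.1, held 74.7 and 67.7 CPM in cycling T cells, and Hist1h1t, the testis subtype, had 8 UMIs in the 4 classes of both libraries together.

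H2A pairs with H2B on the outside of the nucleosome core. Its 18 genes gave the greatest part of the histone UMIs in cycling T cells, at 57.9% in the MWA library and 49.3% in the MWA plus TIGIT library. They summed to 7747 and 5397 CPM in cycling T cells, 296 and 159 CPM in other T cells, 4021 and 2316 CPM in cycling macrophages, and 121 and 83.7 CPM in other macrophages. In each class the MWA library was the higher. The log2 ratio of MWA plus TIGIT over MWA was −0.52 in cycling T cells, −0.90 in other T cells, −0.80 in cycling macrophages and −0.54 in other macrophages.

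A single gene, Hist1h2ap, carried much of this. It lies at chr13:21833026-21833507 on the minus strand (ENSMUSG00000094777) and had 43861 UMIs in the 4 classes, the most of any member. In cycling T cells it held 4749.5 CPM in the MWA library and 2427 CPM in the MWA plus TIGIT library. The corresponding levels were 175 and 64.6 CPM in other T cells, 2203 and 924 CPM in cycling macrophages, and 41.1 and 19.6 CPM in other macrophages. The MWA library was the higher in all 4 classes, and no interval of a ratio reached 0. The log2 ratios of MWA plus TIGIT over MWA were −0.97 (−1.01 to −0.92) in cycling T cells and −1.44 (−1.55 to −1.33) in other T cells. In cycling macrophages the ratio was −1.25 (−1.30 to −1.21) and in other macrophages −1.06 (−1.20 to −0.93).

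Without Hist1h2ap, the other 17 H2A genes held 2997 CPM in cycling T cells of the MWA library and 2969.8 CPM in those of the MWA plus TIGIT library. Their log2 ratio between libraries was −0.01 (−0.06 to 0.03) there, an interval that includes 0 but lies wholly below 0 once TMM scaling lowers it by 0.11. It remained below 0 in other T cells at −0.36, in cycling macrophages at −0.38 and in other macrophages at −0.32.

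Hist1h2ae was the most abundant of these 17. It lies at chr13:23570517-23571220 on the minus strand (ENSMUSG00000069272) and held 1684 and 1614 CPM in cycling T cells, 59.1 and 36.7 CPM in other T cells, 1122 and 820.2 CPM in cycling macrophages and 28.8 and 19.2 CPM in other macrophages. It was high in cycling cells of both types, and the MWA library was the higher in each class, with log2 ratios between libraries of −0.06, −0.69, −0.45 and −0.59. Hist1h2ab followed with 425 and 407 CPM in cycling T cells and 5.86 and 3.27 CPM in other T cells. Hist1h2af held 232 and 226 CPM in cycling T cells and 3.11 and 1.19 CPM in other T cells. These 2 genes were among the members most restricted to cycling cells. Hist2h2ac, Hist1h2an and Hist2h2aa1 held 162, 126 and 101 CPM in cycling T cells of the MWA library, and 187, 159.8 and 105 CPM in those of the MWA plus TIGIT library. The other 11 H2A genes stayed under 100 CPM in each class.

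H2B, the partner of H2A, summed to 1131 and 1158 CPM in cycling T cells, 98.5 and 79.5 CPM in other T cells, 601 and 503 CPM in cycling macrophages, and 123 and 103 CPM in other macrophages. In contrast to the other 4 families, H2B was higher in other macrophages than in other T cells, by log2 ratios of 0.32 (0.23 to 0.41) in the MWA library and 0.38 (0.28 to 0.47) in the MWA plus TIGIT library. Much of that level was from Hist1h2bc, a gene with 2 annotated exons. It held 92.0 and 80.1 CPM in other macrophages against 21.4 and 13.8 CPM in other T cells. In cycling macrophages it held 144 and 110 CPM, and in cycling T cells 46.6 and 53.6 CPM. Among the 24 members with at least 100 CPM in a class, only Hist1h2bc was higher in macrophages than in T cells in both states and libraries. Its log2 ratios of cycling over other macrophages were 0.65 and 0.45. After thinning to 1000 UMIs per cell, it was found in 8.10% and 6.84% of other macrophages, 1.94% and 1.23% of other T cells and 3.31% and 2.71% of monocytes. Of the few neutrophils left after thinning, 5 of 44 and 3 of 47 held it, so other macrophages stood above other T cells and monocytes but were not set apart from neutrophils.

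The other named H2B genes followed the cycling pattern. Hist1h2bj held 179.6 and 188 CPM in cycling T cells and 7.31 and 6.83 CPM in other T cells. Hist1h2be held 149 and 164 CPM in cycling T cells and 16.7 and 15.7 CPM in other T cells. Hist1h2bn, Hist1h2bb and Hist2h2bb held 154, 126 and 106 CPM in cycling T cells of the MWA library and 140.4, 148 and 109.8 CPM in those of the MWA plus TIGIT library. In other T cells, these 3 genes stayed under 10 CPM in both libraries.

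H3 and H4 form the center of the nucleosome core, and their tails carry many of the known chromatin marks. The 12 H3 genes summed to 1153 and 1197 CPM in cycling T cells, 67.4 and 53.0 CPM in other T cells, 618 and 509 CPM in cycling macrophages, and 29.4 and 24.8 CPM in other macrophages. H3 was the family with the lowest level in other cells of both types. Hist1h3c was the highest of its genes, with 328 and 336 CPM in cycling T cells and 5.28 and 2.23 CPM in other T cells. Hist1h3e held 262 and 281 CPM in cycling T cells, with 20.4 and 17.2 CPM in other T cells. Hist1h3f and Hist1h3i held 179.6 and 121 CPM in cycling T cells of the MWA library and 183 and 124 CPM in those of the MWA plus TIGIT library. These 4 genes were high in cycling cells of both types, with log2 ratios over other cells between 3.68 and 7.24.

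The 13 H4 genes summed to 1244 and 1157 CPM in cycling T cells, 159 and 139 CPM in other T cells, 783 and 682 CPM in cycling macrophages, and 88.1 and 73.8 CPM in other macrophages. Hist1h4d, at chr13:23581598-23582735 on the plus strand (ENSMUSG00000061482), gave over 50% of these UMIs in cycling T cells, with 676 and 666 CPM. It held 73.8 and 66.2 CPM in other T cells, 478 and 418 CPM in cycling macrophages and 31.7 and 27.4 CPM in other macrophages. Hist1h4h held 188 and 158 CPM in cycling T cells and Hist1h4c held 117 and 111 CPM. The H4 genes thus differed less between cycling and other cells than the H3 genes did, with family log2 ratios of cycling over other cells of 2.97 and 3.06 in T cells and 3.15 and 3.21 in macrophages, beside 4.10 and 4.50 in T cells and 4.39 and 4.36 in macrophages for H3.

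**Figure D2:**
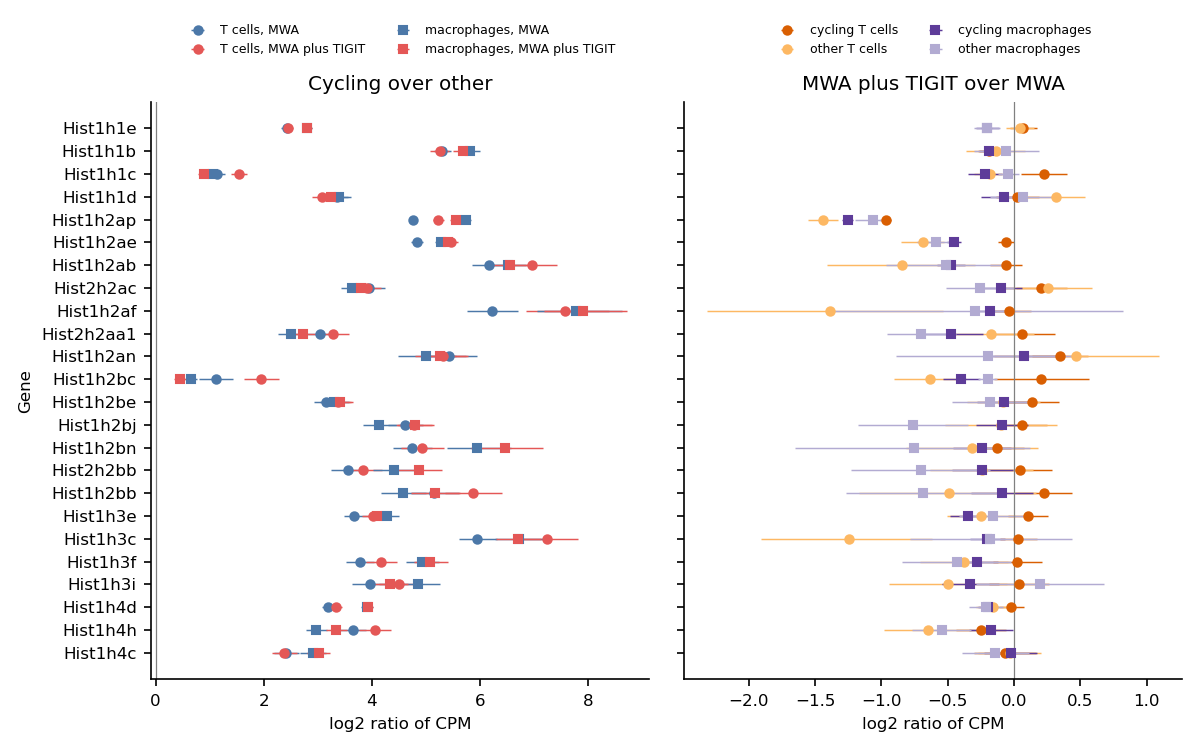
The 24 histone genes with at least 100 CPM in a class, ordered by family, with log2 ratios of CPM on the horizontal axis and exact 95% intervals as bars. At left, cycling over other cells in T cells (circles) and macrophages (squares) of each library all lie above 0; at right, MWA plus TIGIT over MWA in each of the 4 classes, where Hist1h2ap has the lowest ratio of the genes drawn in each class.

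Between the libraries, the sum of all 67 members was lower in the MWA plus TIGIT library in each class. The log2 ratio was −0.29 (−0.31 to −0.27) in cycling T cells, −0.37 (−0.41 to −0.33) in other T cells, −0.52 (−0.54 to −0.50) in cycling macrophages and −0.27 (−0.30 to −0.24) in other macrophages. Without Hist1h2ap, the sum in cycling T cells was 8637 CPM in the MWA library and 8528 CPM in the MWA plus TIGIT library, a log2 ratio of −0.02 (−0.04 to 0.01). Without this gene the interval in cycling T cells thus includes 0, but TMM scaling moves it wholly below 0. In the other classes the ratio without it stayed below 0, at −0.19 in other T cells, −0.28 in cycling macrophages and −0.22 in other macrophages. TMM scaling lowers library ratios in both T cell classes by a further 0.11. By family, cycling T cells showed log2 ratios of −0.05 for H1, 0.03 for H2B, 0.05 for H3 and −0.10 for H4, and the values for H2B and H3 fall on the other side of 0 under TMM scaling. Cycling T cells of the MWA and MWA plus TIGIT libraries also differed in Mki67 plus Top2a, at 1189 and 1670 CPM. All members summed to 9530 and 4894 CPM in T cells with 4 to 5 such UMIs and to 14028 and 8439 CPM with 6 to 10. The part of this make-up in the library ratios was not tested.

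In cycling T cells, 58 of the 67 members had at least 20 UMIs over both libraries. Of these, 4 were at least 1.5-fold lower in the MWA plus TIGIT library, against 3.67% of all 9128 genes that passed: Hist1h4n, Hist1h4m, Hist1h2ah and Hist1h2ap. The interval for Hist1h2ah (−2.58 to 0.42) spanned 0. Only Hist2h4 was at least 1.5-fold higher, at 0.65 (0.02 to 1.31), against 9.7% of genes, and under TMM scaling it falls short of 1.5-fold. The member median was 0.02 and the median over all genes that passed was 0.14. The count depended on the cells kept: with cells over 5000 UMIs left out, 10 of 33 members were at least 1.5-fold lower, against 11.6% of genes under the same setting. With no minimum of UMIs, 4 of 61 members were, against 9.66% of genes. With TMM factors, 4 of 58 were, against 5.44%. Next to Hist2h4, the highest ratios were those of Hist2h3b at 0.50 (0.07 to 0.93) and Hist1h2bl at 0.42, whose interval spanned 0.

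In cycling macrophages, 58 members passed and 6 were at least 1.5-fold lower in the MWA plus TIGIT library, against 2.71% of genes, and 0 were higher, against 4.18%. The 6 were Hist1h2ap, Hist1h4m, Hist1h2br, Hist2h4, Hist2h2be and Hist4h4, the last 2 named after their values were seen. The intervals for Hist1h4m and Hist2h2be spanned 0. The member median was −0.24, beside 0.04 over all 10672 genes that passed. The highest ratios were those of Hist1h2bp (0.41), Hist3h2a (0.26) and Hist2h3b (0.20), each with an interval that spanned 0. Of the 58, 52 had a ratio below 0 and 26 an interval below 0, beside 4449 and 565 of the 10672 genes. The difference from cycling T cells was not tested.

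In other T cells, 54 members passed, 16 were at least 1.5-fold lower, against 3.59% of genes, and 1 (Hist1h2ad) was higher, against 4.09%, with an interval that spanned 0 (−0.21 to 2.23). Hist1h2an at 0.47 and Hist1h4b at 0.36 followed, and their intervals spanned 0 as well. The member median was −0.24 beside 0.11 over all 11683 genes. After Hist1h2ap, the lowest ratios were those of Hist1h2af at −1.39 and Hist1h3c at −1.25. This class held a few cells with far more histone mRNA. In the cluster led by Depdc1b and Esco2, 37 other T cells (MWA) and 24 (MWA plus TIGIT) held 6699 and 2176 CPM. T cells with 0 UMIs of Mki67 plus Top2a held 757 and 657 CPM. The part of such cells in these member ratios was not tested. In other macrophages, 58 members passed, 18 were at least 1.5-fold lower, against 3.26% of genes, and 0 were higher, against 2.81%. The member median there was −0.29 beside 0.04 over all 12611 genes. Hist1h4m had the lowest ratio, at −1.52 (−2.47 to −0.63), from 51 UMIs, and Hist1h2ad followed at −1.20 (−2.18 to −0.26). The highest ratios were those of Hist1h3i (0.19), Hist1h2ao (0.19) and Hist3h2a (0.13), each with an interval that spanned 0.

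Of the 52 members with at least 20 UMIs in all 4 of these comparisons, 18 had a ratio below 0 in all 4, against 5.37% of all 8661 genes that passed, and 1 had a ratio above 0 in all 4, against 26.7%. The interval lay below 0 in all 4 for Hist1h2ap, Hist1h2ae, Hist1h4h and Hist1h2br, against 1.26% of genes. Over all 8661 genes with enough UMIs in the 4 comparisons, 4 were at least 1.5-fold lower in each, and 2 of these were members, Hist1h2ap and Hist1h4m, the latter not when summed with its copy Hist1h4n. The others, named after their values were seen, were Gm10076, with 1953 and 912 CPM in cycling T cells, and Gstp1, with 135 and 68.0 CPM. Igkc and Gm21887 were at least 1.5-fold higher in each.

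Hist1h2ap and Hist1h4m are neighbors, and the segment around them was examined after their values were seen. Between chr13:21806612 and chr13:21837530, 6 members lie as an inverted pair of copies: Hist1h2bq, Hist1h2ao and Hist1h4m in one arm, and Hist1h4n, Hist1h2ap and Hist1h2br in the other. Hist1h2ap shares 93.1% of its 50-base stretches with another gene, most with Hist1h2ao, Hist1h4m shares 89.8% of its own, most with Hist1h4n, and Hist1h2bq shares 100% of its own, so the split of UMIs within each pair is uncertain. Hist1h2bq had no UMI and Hist1h2br had 932, while Hist1h2ao had 70 against the 43861 of Hist1h2ap. At the annotated end of Hist1h2ap, 100% of the 50-base stretches are shared. Summed over Hist1h2ap and Hist1h2ao, the log2 ratio between libraries was −0.97 in cycling T cells and −1.25 in cycling macrophages. These equal the values for Hist1h2ap alone because Hist1h2ao adds few UMIs, so the sum does not check the effect of shared sequence. Summed over Hist1h4m and Hist1h4n, it was −1.35 (−1.94 to −0.78) in cycling T cells, but −0.27 (−0.70 to 0.16) in other T cells, −0.58 (−1.18 to 0.01) in cycling macrophages and −0.50 (−0.93 to −0.07) in other macrophages. As a pair, these copies thus passed 1.5-fold in cycling T cells, fell just short of it in cycling macrophages, where TMM scaling takes them past it, and did not reach it in the other classes.

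The segment was drawn around genes with low ratios, so its sums describe it and do not test it. Without Hist1h2ap, the 5 other members inside it, Hist1h4m among them, summed to 111 CPM in the MWA library and 73.1 CPM in the MWA plus TIGIT library in cycling T cells, a log2 ratio of −0.60 (−0.87 to −0.34). The ratios were −0.45 in other T cells, −0.84 in cycling macrophages and −0.63 in other macrophages. The 61 members outside summed to 8526 and 8455 CPM in cycling T cells, a log2 ratio of −0.01 (−0.04 to 0.01). They had ratios of −0.18, −0.28 and −0.21 in the other classes. The sum inside thus had the lower ratio in each class, with intervals that overlapped in other T cells. This did not hold for each member inside: Hist1h4n had a ratio of 0.01 in other T cells and −0.13 in other macrophages, and Hist1h2ao of 0.19 in other macrophages. Whether the difference reflects the cells, the animals or the handling of the libraries cannot be told apart with 1 library per group. Of the 67 members, 32 share more than 50% of their 50-base stretches with another gene, and the median member shares 49.5%.

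In the annotation, 43 of the 67 members carry a stem-loop motif of 16 bases, an arm of 6 bases, a loop of 4 and the pairing arm, after the stop codon. It starts 21 to 58 bases after the stop codon, with a median of 31. The form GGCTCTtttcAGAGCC occurs in 25 of them and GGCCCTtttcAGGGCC in 7. The 12 bases before the stem-loop are shown with it for the 2 most abundant members, for the copy of Hist1h2ap, and for Hist1h4d and Hist1h2ab, which have shorter runs of A. Capitals mark the paired arms.
Hist1h2ap: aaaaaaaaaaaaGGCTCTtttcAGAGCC
Hist1h2ao: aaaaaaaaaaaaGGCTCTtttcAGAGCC
Hist1h2ae: aaaaaaaacaaaGGCTCTtttcAGAGCC
Hist1h4d: ccaaaaaccaaaGGCCCTtttcAGGGCC
Hist1h2ab: aaccaaaacaaaGGCTCTtttcAGAGCC
Hist1h2ap (chr13:21833029-21833056, minus strand) and its copy Hist1h2ao (chr13:21810886-21810913, plus strand) have 12 A in a row that touch the stem-loop, and Hist1h2ae (chr13:23570668-23570695, minus strand) has a run of 8. No other member with a stem-loop has a run of at least 8 A between the stop codon and the stem-loop. The Hist1h4d window lies at chr13:23581938-23581965 and the Hist1h2ab window at chr13:23751560-23751587, both on the plus strand. Elsewhere in the annotated transcripts, less abundant members also have runs of at least 8 A, up to 15 in Hist1h2ac, which was singled out after the runs were seen. The part of these runs in the counts was not tested.

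The annotated transcript ends were compared as well. In 25 members the annotated 3′ UTR runs more than 50 bases past the stem-loop, in 18 it ends within 50 bases of it, in 11 no stem-loop was found, and in 13 no 3′ UTR is annotated. Members with the long form gave 37.3% and 46.1% of the histone UMIs in cycling T cells and 58.8% and 69.0% in other T cells. Members that end near the stem-loop gave 45.8% and 34.4% in cycling T cells and 28.7% and 18.4% in other T cells. Hist1h2ap is among the members that end near the stem-loop. Alone it held 4749.5 of the 13387 CPM (MWA) and 2427 of the 10955 CPM (MWA plus TIGIT) in cycling T cells. The share of UMIs from members with a long annotated end was thus higher in other than in cycling T cells of both libraries. UMIs were counted per gene, so which end the counted molecules had was not tested. In macrophages, members with the long annotated end gave 43.9% and 51.5% in cycling cells and 59.3% and 63.7% in other cells. The median log2 ratio of cycling over other T cells was 3.04 and 3.07 over the members with a poly(A) signal in the annotated end and 3.97 and 4.37 over the members without one.

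Promoters of 62 of the 67 members were found in the RefSeq table (build GRCm38.p6), each 300 bases long with 250 before the transcript start. On either strand, CCAAT occurred in 53 of the 62 (85.5%), against 37.4% of all 32851 promoters of this length. It was in each matched H1, H2A, H2B and H3 promoter and in 3 of the 12 matched H4 promoters. TATAAA occurred in 35 (56.5%, against 13.6%). ATTTGCAT, the octamer, occurred in 13 of the 62, against 1.74% of all promoters, of which 7 were H2A and 6 H2B promoters. AAACACA, known from H1 promoters, occurred in 9 (14.5%, against 7.18%), with 5 of the 6 H1 promoters among them. A match is a description of letters, not a site. The promoters of Hist1h2ae (chr13:23571171-23571470, minus strand) and Hist1h1b (chr13:21780576-21780875, minus strand) are shown because together they hold each of the 4 motifs, which are in capitals on either strand.
Hist1h2ae: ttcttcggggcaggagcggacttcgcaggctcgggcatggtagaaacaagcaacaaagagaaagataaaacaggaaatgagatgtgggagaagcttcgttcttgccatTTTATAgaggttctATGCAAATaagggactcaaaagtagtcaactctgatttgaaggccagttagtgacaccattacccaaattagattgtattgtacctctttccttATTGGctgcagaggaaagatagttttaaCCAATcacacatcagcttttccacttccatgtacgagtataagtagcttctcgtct
Hist1h1b: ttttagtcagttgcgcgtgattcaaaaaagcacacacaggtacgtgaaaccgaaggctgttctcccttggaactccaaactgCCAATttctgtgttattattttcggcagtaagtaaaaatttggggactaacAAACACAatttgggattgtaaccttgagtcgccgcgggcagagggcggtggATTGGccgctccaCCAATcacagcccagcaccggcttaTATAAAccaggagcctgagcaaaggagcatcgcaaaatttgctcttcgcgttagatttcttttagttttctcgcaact

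Within the cycling cells, the stage of the cycle was read from 2 lists that hold no member, 28 S-phase genes and 30 G2/M genes (without Mki67 and Top2a). Each cell was placed by the part of S-list UMIs in its S plus G2/M UMIs. In cycling T cells of the MWA library, the histone sum was 17231 CPM in the 71 cells with the lowest part (under 1/3), 16549 CPM in the 147 cells between, and 4687 CPM in the 80 cells with the highest part (over 2/3). In the MWA plus TIGIT library it was 13962 CPM (99 cells), 14163 CPM (131 cells) and 2650.3 CPM (88 cells). The cells dominated by S-list genes thus had the lowest histone level in both libraries, by log2 ratios of −1.88 and −2.40 to the cells dominated by G2/M genes.

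Cycling macrophages had their highest level in the middle group. In the MWA library they held 6799.7 CPM (236 cells), 11597 CPM (115 cells) and 2207 CPM (92 cells) from the lowest to the highest S part. In the MWA plus TIGIT library they held 5379 CPM (244 cells), 8333 CPM (112 cells) and 1244 CPM (127 cells). The log2 ratio of the highest to the lowest S part was −1.62 and −2.11. Medians of that ratio over all genes with at least 20 UMIs were −0.05 and −0.13 in T cells and −0.03 and −0.05 in macrophages. Many genes of the S list encode the licensing and nucleotide supply machinery (Mcm2 to Mcm7, Rrm1, Tyms), which rises ahead of and early in S phase. Mki67 and Top2a decided which cells entered, and both rise from S phase to mitosis. How many cells early in S phase fell among the other cells was not tested.

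**Figure D3:**
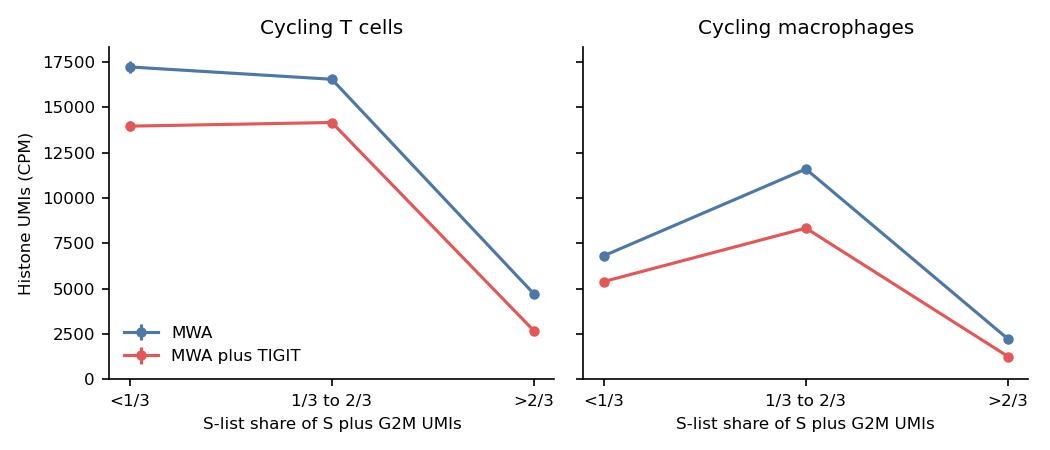
Summed histone level (CPM, vertical axis) of cycling T cells (left) and cycling macrophages (right) in 3 groups by the part of S-list UMIs in S plus G2/M UMIs (horizontal axis), for the MWA library (blue) and the MWA plus TIGIT library (red), with exact 95% Poisson intervals. The group with over 2/3 S-list UMIs is the lowest in both cell types and both libraries.

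The cycle lists were compared between libraries as well. The S list in cycling T cells summed to 3298 and 3543 CPM and the G2/M list to 3808 and 5055 CPM, so the MWA plus TIGIT library held more of the G2/M list, with 9 of 30 genes at least 1.5-fold higher, against 9.7% of all genes. The log2 ratio of the S list sum, 0.10, falls to the other side of 0 under TMM scaling. The median log2 ratio between libraries was 0.12 for the S list and 0.45 for the G2/M list, beside 0.02 for the members and 0.14 over all genes that passed. For cycling macrophages the S list, G2/M list and member medians were 0.13, −0.10 and −0.24. For other T cells they were 0.04, −0.25 and −0.24, with 5 of 28 G2/M genes at least 1.5-fold lower, against 3.59% of all genes. For other macrophages they were −0.14, −0.11 and −0.29, so the G2/M list stood lower together with the members in these 3 classes. The part of cycle stage in the library ratios of the members was not tested.

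Shares of cells with a histone UMI were taken after thinning each cell to 1000 UMIs. Of cycling T cells, 91.3% (87.5 to 94.2) in the MWA library and 85.9% (81.6 to 89.5) in the MWA plus TIGIT library held one, and no cell was too shallow. Of cycling macrophages, 81.5% and 71.8% did. Without thinning these shares were 99.7%, 99.4%, 99.3% and 98.6%. The unthinned shares follow depth and are given only beside the thinned ones.

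Neutrophils, which do not divide, served as the background class, with median depths of 932 and 1142 UMIs. After thinning, 38.6% (24.4 to 54.5) of them in the MWA library and 27.7% (15.6 to 42.6) in the MWA plus TIGIT library held a histone UMI, with 55 of 99 and 36 of 83 cells left out as too shallow. Their histone level was 861 and 624 CPM. Neutrophils also held macrophage markers at 4412 and 2553 CPM, against 855 and 874 CPM in other T cells. The part of RNA from other cells in their histone share was not tested. Of other T cells, 48.8% and 44.8% held a histone UMI after thinning, with 50 and 57 cells left out (80.8% and 79.4% unthinned). Of other macrophages, 36.1% and 32.0% did, with 10 and 5 left out (87.1% and 88.9% unthinned). The share in other macrophages lay below that of the neutrophils in the MWA library and within their interval in the MWA plus TIGIT library, so by this share other macrophages are not set apart from the neutrophils. In other T cells the share lay within the neutrophil interval in the MWA library and above it in the MWA plus TIGIT library. How much of the histone signal in other cells was free RNA from lysed cells was not tested.

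Among T cells, the CD8 group (UMIs of Cd8a or Cd8b1 and none of Cd4) held 14265 CPM in 190 cycling cells of the MWA library and 11159 CPM in 203 cells of the MWA plus TIGIT library. The CD4 group (Cd4 without Cd8a or Cd8b1) held 8852 CPM in 42 cells and 10309.8 CPM in 57 cells. So the MWA library was higher in the CD8 group and lower in the CD4 group, a difference that was not tested. It did not hold for the cluster led by Cd40lg, Cd4 and Trat1, whose 11 (MWA) and 19 (MWA plus TIGIT) cycling cells held 1206 and 843 CPM. Cycling cells with a Foxp3 UMI, the mark of regulatory T cells, held 14274 CPM in 28 cells and 9902 CPM in 20 cells. How many of them are also in the CD4 group is not given.

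The variant histones are made outside S phase as well and replace the members in older chromatin. Their 11 genes summed to 7111 and 7377 CPM in cycling T cells and 3933 and 4023 CPM in other T cells, and to 7351 and 7131 CPM in cycling macrophages and 4210.3 and 4111 CPM in other macrophages. In other cells the variant genes thus held more UMIs than the 67 members together, and cycling cells exceeded other cells by log2 ratios of only 0.85 and 0.87 in T cells and 0.80 and 0.79 in macrophages. H2afx, which is phosphorylated at DNA breaks, was the variant gene nearest to the members, with 344 and 346 CPM in cycling T cells and 34.4 and 30.3 CPM in other T cells. H3f3b, for the replacement histone H3.3, held 1990.3 and 2101 CPM in cycling T cells and 1759.6 and 1839 CPM in other T cells. Between libraries, 9 of the 11 had enough UMIs in cycling T cells, with a median log2 ratio of 0.01.

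Genes for histone transcription and 3′ processing formed a list of 16. Of the 15 with enough UMIs, 8 in the MWA library and 7 in the MWA plus TIGIT library were at least 2-fold higher in cycling than in other T cells, against 8.29% and 8.44% of all genes. Slbp, whose protein binds the stem-loop, held 181 and 162 CPM in cycling T cells and 49.0 and 57.1 CPM in other T cells. Npat, which activates histone transcription, held 27.4 and 30.6 CPM and 12.3 and 17.2 CPM. Both were higher in cycling cells, but by far less than the genes they act on. Between libraries their median log2 ratio in cycling T cells was 0.02.

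The chaperones that carry histones to DNA formed a list of 17, and 12 of them were at least 2-fold higher in cycling T cells of each library, against 8.29% and 8.44% of all genes. Asf1b, which hands over H3 with H4, had the highest ratio at 3.79 and 4.23, from 121 and 153 CPM in cycling T cells against 8.76 and 8.16 CPM in other T cells. Nap1l1, a carrier of H2A with H2B, was the most abundant, with 439.8 and 479 CPM in cycling T cells. Between libraries, the median log2 ratio of the 17 in cycling T cells was 0.23, beside 0.14 over all genes that passed.

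As a description over single cells, the genes most like the histone sum were sought among 1501 other genes with at least 200 UMIs in both libraries, by the correlation of log-scaled counts over the cycling T cells. These cells of a library share one preparation and differ in depth. The highest values belonged to Tubb5, with r of 0.69 over 298 cells of the MWA library and 0.66 over 319 cells of the MWA plus TIGIT library. Birc5 had 0.64 and 0.66, and Tuba1b 0.60 and 0.65. Next came Nusap1, Hmgb1, Spc24, H2afz and Cdca3, with values between 0.50 and 0.56. The histone sum had r of 0.67 and 0.65 with the G2/M list and 0.20 and 0.23 with the S list, and 0.02 and 0.05 with depth. Of these 8 genes, Birc5, Nusap1 and Cdca3 are on the G2/M list and none is on the S list.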

How the data were processed

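The deposited tables hold counts (UMIs per gene and cell barcode) that the authors made with Cell Ranger from 10x Genomics 3′ V3.1 libraries aligned to mm10. The file header names Cell Ranger 4.0.0 and the labels 6.1.1. Cells with under 200 genes (1 and 1) or over 10% mitochondrial UMIs (179 and 276) and simulated-doublet calls (820 and 808, at 0.8% per 1000 barcodes) were left out. No upper UMI limit was set, since cycling cells are deep. T cells and macrophages were taken from 23 Leiden clusters (1892 variable genes, 30 components, 20 neighbors, resolution 1) made without the members, the cycle lists, Mki67 and Top2a, and named by markers. A cluster of 617 cells with macrophage markers at 42284 CPM was in neither class. Another of 124 cells, with T cell markers at 4789 CPM, was also left out of both. Their median depths were 1355 and 828 UMIs. UMIs were summed per class, and ratios were given exact conditional binomial intervals. Genes with under 20 UMIs over the classes compared got no ratio. The text names members with at least 100 CPM in a class, and the 3 highest and 3 lowest ratios per comparison. Members and lists were chosen with earlier results of these data known. The alternatives tried were an upper limit of 5000 UMIs, doublets kept, 2 or 6 UMIs for cycling, classes by marker UMIs, no minimum of UMIs, leaving out Hist1h2ap, and TMM factors. Total depth was 66152465 UMIs in the MWA library and 78751205 in the MWA plus TIGIT library. Gene models were read from GENCODE M21. Tools were Python 3.11.15, numpy 2.4.6, pandas 2.3.3, scipy 1.17.1, scikit-learn 1.9.0, leidenalg 0.10.2, matplotlib 3.10.9, R 4.3.3 and edgeR 4.0.16.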

Additional observations from a re-analysis of the deposited data

Results flagged for a closer look

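For 2 members, the ratio between libraries had an interval above 0 in cycling T cells and below 0 in cycling macrophages, which drew attention because the signs differ under the same comparison. Of 56 members with enough UMIs in both classes these were 2, and of 8698 genes 0.724% showed the pattern. Hist1h1c had a log2 ratio of MWA plus TIGIT over MWA of 0.23 (0.06 to 0.40) in cycling T cells and −0.22 (−0.35 to −0.09) in cycling macrophages. Hist2h4 had 0.65 (0.02 to 1.31), from 92 UMIs, and −0.72 (−1.21 to −0.24). After thinning, the share of cells with Hist1h1c went the other way, from 66 of 298 cycling T cells in the MWA library to 60 of 319 in the MWA plus TIGIT library, and from 47 of 443 to 58 of 483 cycling macrophages. The difference between the cell types was not tested. The low ends in T cells, 0.06 and 0.02, are smaller than the 0.11 by which TMM scaling lowers the ratios of that class, so both T cell intervals then span 0, and Hist2h4 falls short of 1.5-fold.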

How the results depend on the processing

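Of 68 alternative values, 68 kept their direction, 25 stayed within the interval (or, for counts, within 1.5 times) of the value reported, and 43 moved beyond it. None reversed. The values that moved follow by setting, as log2 ratios, and the cause was not tested.

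With cells over 5000 UMIs left out, 33 and 48 cycling T cells and 17 and 18 cycling macrophages remained. Cycling over other T cells became 4.36 (MWA) and 4.12 (MWA plus TIGIT), and cycling over other macrophages 2.84 and 2.49, the 2 values that moved by more than 1.5 times as folds. MWA plus TIGIT over MWA became −0.45 in cycling T cells, −0.21 in other T cells and −0.16 in other macrophages. Members at least 1.5-fold lower in cycling T cells became 10 of 33 counted (11.6% of all genes under that setting), instead of 4 of 58 (3.67%).

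With doublets kept, cycling over other cells was 3.89 and 3.98 in T cells and 3.71 and 3.45 in macrophages, and the library ratio in cycling macrophages was −0.55.

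With cycling at 2 UMIs, cycling over other cells was 3.85 and 3.80 in T cells and 3.61 and 3.37 in macrophages, and the library ratio in other T cells was −0.26. With cycling at 6 UMIs, it was 3.74 in T cells (MWA) and 3.96 and 3.83 in macrophages, and library ratios were −0.58 in other T cells and −0.38 in other macrophages.

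With classes by marker UMIs, cycling over other T cells was 3.84 and 3.98, and library ratios were −0.20 in cycling T cells and −0.48 in cycling macrophages.

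Without Hist1h2ap, which leaves 66 members, cycling over other cells was 3.64 and 3.80 in T cells and 3.41 and 3.34 in macrophages. Library ratios were −0.018 in cycling T cells, −0.19 in other T cells, −0.28 in cycling macrophages and −0.22 in other macrophages.

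With TMM factors, which shift each class as a whole, cycling over other cells was 3.91 and 3.98 in T cells and 3.68 and 3.41 in macrophages. Library ratios were −0.40 in cycling T cells, −0.48 in other T cells, −0.55 in cycling macrophages and −0.30 in other macrophages.

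Members at least 2-fold higher in cycling T cells numbered 53 (MWA) and 56 (MWA plus TIGIT), against 8.29% and 8.44% of all genes. They were 56 and 57 without a minimum of UMIs (12.8% and 13.1%), 42 of 44 counted and 39 of 42 with cells over 5000 UMIs left out (17.9% and 13.4%), and 53 and 56 again with doublets kept or with TMM factors.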

Other observations

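Several limits apply. With 1 library per group, the group, the animals and the preparation cannot be told apart, and the intervals cover counting error only. How the counted histone mRNAs were primed was not tested, so UMIs are not read as total histone mRNA. Sequence shared between copies leaves the split of UMIs among near-identical members uncertain. A sum over a pair does not depend on that split, but whether molecules that fit both copies were counted was not tested. Hist1h1e overlaps Hist1h2be on the same strand. Hist1h3e, Hist1h3f and Hist2h2aa1 share 100% of the 50-base stretches at their annotated ends with another gene. Summed histone levels of other cells were no higher than or near those of neutrophils. The thinned share of other T cells in the MWA plus TIGIT library nevertheless lay above the neutrophil interval. How much of the histone signal in other cells was free RNA was not tested. The cycling classes were defined on 2 genes that rise toward mitosis, and how many cells of early S phase they miss was not tested.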
